A study of Mus musculus with 9 samples.

Results

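The 4 mature miRNAs described here, mmu-miR-378a-3p, mmu-miR-342-3p, mmu-miR-340-3p and mmu-miR-486a-5p (named below without the prefix), are among 817 listed in a small RNA sequencing (sRNA-seq) table of mouse preleukemic cells. They were selected on their T-ending share in these libraries: their reads still ended in added Ts in cells without *Tut4* and *Tut7*, although their genomic copies do not continue with a T. That share is therefore given as a description, without a test.

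The 9 libraries came from c-Kit-enriched fetal liver cells that carried retroviral *Meis1* and *Hoxa9* and were cultured with stem cell factor, IL-6 and IL-3. The 5 Tut4/7 CTL libraries were from cells homozygous for the floxed alleles *Tut4* fl and *Tut7* fl and negative for *Vav-iCre*, which the labels call WT. The 4 Tut4/7 cKO libraries were from cells with the same floxed alleles that carried *Vav-iCre*. Both genotypes had both oncogenes, and *Vav-iCre* deletes across the hematopoietic system rather than at a chosen moment of the culture. The labels do not say whether replicates were separate animals or cultures, but the study's methods state that its replicates in mouse cells came from separate animals or embryos. Every p value below measures the spread between these libraries.

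Most animal miRNAs are cut from a hairpin whose 5p and 3p arms each give a mature strand of fixed ends. TUT4 and TUT7 are cytoplasmic terminal uridylyl transferases that add uridines, read as T in a library, to the 3′ end of RNAs, including miRNAs and their precursors. miR-378a is encoded in an intron of *Ppargc1b*, a coactivator gene of mitochondrial metabolism. miR-342 lies within *Evl*, which encodes an actin regulator, miR-340 within *Rnf130*, a ubiquitin ligase gene, and miR-486 within *Ank1*, the gene of an ankyrin of the red cell membrane. miR-486 is known for its high level in erythroid cells and muscle.

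RefSeq mature sequences (GRCm38.p6) matched 2 of the 4 members and show which strands were counted. Capitals mark the seed, bases 2 to 8, which pairs with target mRNAs, and the let-7i-5p sequence is shown because this miRNA lost most of its T-ending reads in Tut4/7 cKO libraries.
miR-342-3p: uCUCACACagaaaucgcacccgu
miR-340-3p: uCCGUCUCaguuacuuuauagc
let-7i-5p: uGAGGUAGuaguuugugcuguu
No other miRNA of the table with a complete mature sequence shared the seed of miR-342-3p or of miR-340-3p. miR-378c shared that of miR-378a-3p, and miR-486b-5p that of miR-486a-5p.

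A genomic T directly after the mature end cannot be told apart from an added one, so the next bases decide what a T-ending read can mean. The following lines give each mature sequence in GRCm39, with the 7 bases after it in capitals.
miR-342-3p: tctcacacagaaatcgcacccgtCACCTTG
miR-340-3p: tccgtctcagttactttatagcCATACCT
let-7i-5p: tgaggtagtagtttgtgctgttGGTCGGG
The deposited reads of the first 2 that carried a single T past the mature end, the T in capitals, were as follows.
miR-342-3p with 1 T: tctcacacagaaatcgcacccgtT
miR-340-3p with 1 T: tccgtctcagttactttatagcT
In the 9 libraries together, the first of these was counted 694 times, against 2067 reads that ended at the mature end and began at base 1. The corresponding numbers for miR-340-3p were 166 and 914. The mature miR-342-3p itself ends in T, so a read trimmed by 1 base with 1 T added equals the mature read and was counted as such.

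In GRCm39, miR-342-3p lies at chr12:108624939-108624961 on the plus strand, in an intron of *Evl*. miR-340-3p lies at chr11:49960589-49960610 on the plus strand, in an intron of *Rnf130*. miR-486a-5p has 2 copies in an intron of *Ank1*, in *Mir486* at chr8:23632603-23632624 on the plus strand and in *Mir3107* at chr8:23632643-23632664 on the minus strand. No exact copy of any of the 4 mature sequences in the genome was followed by T. The next base was C for miR-378a-3p, miR-342-3p and miR-340-3p, and C or G for the copies of miR-486a-5p. A next base of C was also found in 25 of the 76 other tested miRNAs without a following T (32.9%). It was found in 8 of the 15 of these with a mean cKO share of at least 1% and in 17 of the 61 below that, a split chosen after the values were seen. Reads that run on into this genomic C could not map to the authors' reference, which was extended by Ts only, and are not in the counts.

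miR-378a-3p was by far the most abundant of the 4 and carried a T on close to every other read in both genotypes. Its T-ending share was 43.0%, 42.8%, 48.6%, 54.7% and 64.9% in CTL replicates 1 to 5, on 1619 to 3215 reads each. In cKO replicates 1 to 4 it was 54.7%, 52.9%, 48.3% and 43.5%, on 868 to 4689 reads. The cKO libraries all lay within the range of the CTL libraries, and CTL replicate 5 stood highest. The means were 50.8% ± 9.27 (SD, n = 5) and 49.9% ± 5.02 (SD, n = 4), a ratio of cKO to CTL of 0.982. Over all libraries of a genotype, 6002 of 12158 CTL reads and 5305 of 11078 cKO reads ended in T, which gives 49.4% (95% Wilson interval 48.5 to 50.3) and 47.9% (47.0 to 48.8).

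Part of the reads listed for miR-378a-3p, 1710 of 23236 (7.36%), also fit miR-378b or miR-378c, and 1775 further reads that fit it were listed for those. None of its T-ending reads was among them. With all such reads given to miR-378a-3p, the mean T-ending share was 46.3% in CTL and 46.4% in cKO libraries. Among reads that reached the mature end, whose number the shared reads do not touch, it was 53.9% ± 8.28 and 53.7% ± 5.22.

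miR-342-3p kept most of its T-ending reads, with lower values in some cKO libraries. The share was 32.6%, 21.4%, 42.9%, 34.6% and 46.7% in CTL replicates 1 to 5, and 33.9%, 31.5%, 19.2% and 13.9% in cKO replicates 1 to 4. cKO replicates 1 and 2 lay within the CTL range, while cKO replicates 3 and 4 lay below every CTL library. CTL replicate 2 alone set the bottom of that range. Without it the CTL mean was 39.2%, and cKO replicate 2 also lay below every remaining CTL library. The means were 35.6% ± 9.85 and 24.6% ± 9.60, a ratio of 0.691. Pooled over libraries, 387 of 1137 CTL reads and 345 of 1825 cKO reads ended in T, and cKO replicate 4 alone held 1127 of the 1825. None of the reads of miR-342-3p or miR-340-3p fit another miRNA.

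miR-340-3p had the lowest T-ending share of the members that were not shared with a paralog. It was 6.25%, 16.2%, 15.3%, 9.64% and 30.8% in CTL replicates 1 to 5, and 14.3%, 12.2%, 13.9% and 7.59% in cKO replicates 1 to 4. The cKO libraries lay within the CTL range, which was set by CTL replicate 1 at the bottom, with 3 T-ending reads of 48, and CTL replicate 5 at the top, with 28 of 91. The means were 15.6% ± 9.40 and 12% ± 3.07, a ratio of 0.768. A single library is imprecise at this depth, as the 95% Wilson interval was 7.31 to 18.6 percentage points wide. These intervals cover counting error only, since PCR copies of 1 molecule cannot be recognised in these reads.

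miR-486a-5p rested on few reads, 87 in CTL and 46 in cKO libraries together, and its listed share depended on how identical reads were assigned. As deposited, its T-ending share was 0%, 33.3%, 17.6%, 44.4% and 36.6% in CTL replicates 1 to 5, and 42.9%, 19.0%, 100% and 12.5% in cKO replicates 1 to 4. The 100% was 3 of 3 reads, and the 0% was 0 of 5. All 133 of its reads also fit miR-486b-5p, and in the 9 libraries 79 more reads that fit it were listed for miR-486b-5p. Each read sequence was listed for only 1 of the pair in a given library. The T-ending sequences were listed for miR-486a-5p in 11 of 11 cases, counting each sequence in each library, and the others in 15 of 30. With the reads of both combined, the share was 0%, 15.4%, 10.7%, 38.1% and 36.6% in CTL and 28.6%, 11.8%, 12% and 5.26% in cKO libraries. The direction then turned: the means were 26.4% in CTL and 43.6% in cKO libraries as deposited, and 20.2% ± 16.7 and 14.4% ± 9.95 when combined.

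**Figure D1:**
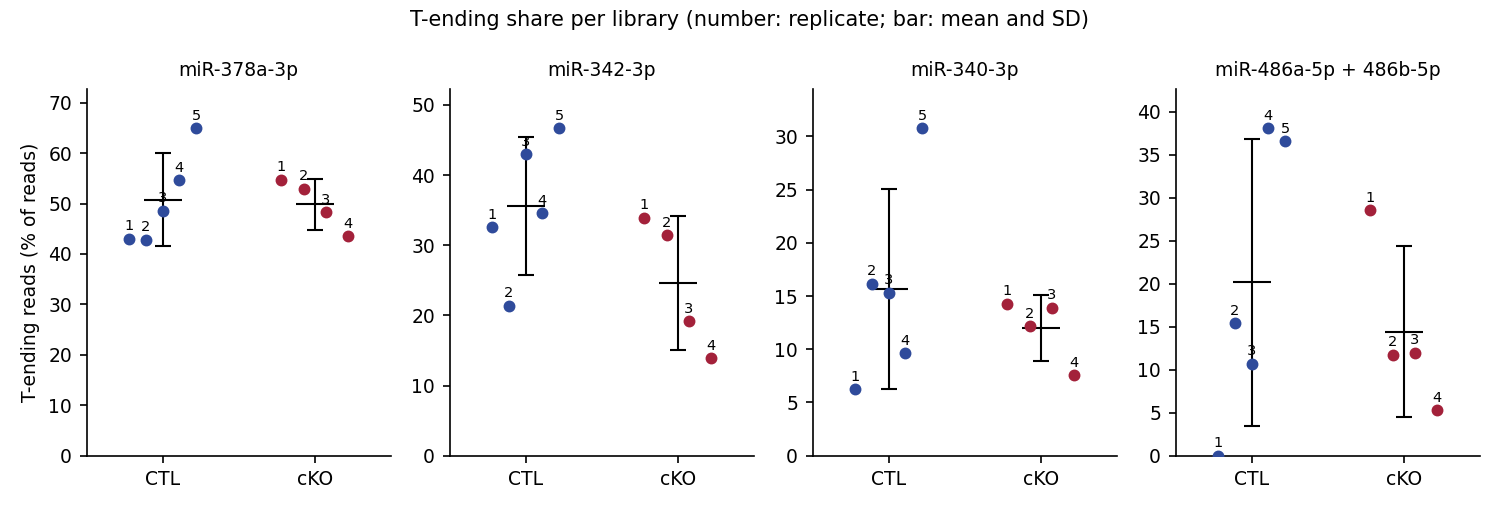
T-ending reads as a percentage of all reads of a miRNA (vertical axis, scaled separately in each panel) in the 5 Tut4/7 CTL and 4 Tut4/7 cKO libraries. Points are libraries numbered by replicate, and black bars give the mean and SD. The genotypes overlap in every panel, cKO replicate 4 is the lowest cKO library in each, and reads of miR-486a-5p and miR-486b-5p are combined.

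The same cKO libraries held the extremes for the members, while the order of the others varied. Of the cKO libraries, replicate 1 was highest and replicate 4 lowest for miR-378a-3p, miR-342-3p, miR-340-3p and the combined miR-486 reads. Of the CTL libraries, replicate 5 was highest for the first 3 of these. The T-ending share over all miRNAs, which includes those followed by a genomic T, had the same highest and lowest cKO libraries and the same highest CTL library. It was 19.3% in cKO replicate 1 and 7.55% in cKO replicate 4, and 24.8% in CTL replicate 5 against 10.8% in CTL replicate 2, the lowest. In no member did the genotypes separate, whereas the share was lower in every cKO than in every CTL library for 34.3% of the 143 miRNAs with enough reads to test. Since this contrast chose the members, nothing is read from that count. Whether the members followed a property of the whole library was not tested.

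Across the 9 libraries, the 3 miRNAs whose T-ending share was most like that of miR-378a-3p were miR-30d-5p (Pearson r = 0.849), miR-296-5p (0.758) and miR-223-5p (0.754), of 59 with at least 10 reads and 1 T-ending read in every library. For miR-342-3p they were miR-16-5p (0.875), miR-181b-5p (0.845) and miR-139-3p (0.842). For miR-340-3p they were miR-30d-5p (0.897), miR-30c-5p (0.836) and miR-296-5p (0.766). Of the miRNAs named here, all but miR-30d-5p and miR-223-5p are followed by a genomic T. These correlations describe points that share their library and its depth. miR-486a-5p had too few reads to be compared.

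The other miRNAs without a following genomic T give the setting for these shares. Entry to the test required enough reads and a T-ending read in 3 or more CTL libraries, with no such demand on cKO libraries. Of the 143 miRNAs that entered, 80 had no T after any genomic copy, and 76 were left without the members. Their median T-ending share was 4.59% in CTL and 0.183% in cKO libraries, and the median ratio of cKO to CTL was 0.0467. By the test of T-ending odds described with the opposite arms, 55 of the 76 were lower in cKO libraries. Only 5 of the 76 had a cKO share of at least 10%, and the highest was 25.9%, in miR-30d-5p. The cKO mean of miR-378a-3p was above that highest value, whereas those of miR-342-3p, miR-340-3p and the combined miR-486 reads lay between it and 10%.

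Several miRNAs with values near those of the members are not on the list. miR-30a-5p had 24.7% ± 6.89 in CTL and 24.2% ± 4.28 in cKO libraries, on 358 and 267 reads. miR-30d-5p had 30.4% ± 11.4 and 25.9% ± 7.45, miR-21a-5p 27.2% ± 6.44 and 17.9% ± 4.94, and miR-222-3p 5.39% ± 2.98 and 5.20% ± 1.34. miR-203-3p, with the highest ratio, had 1.05% and 2.30% on 2 T-ending reads in each genotype. The list of 4 is therefore not the whole set of miRNAs with a high ratio.

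**Figure D2:**
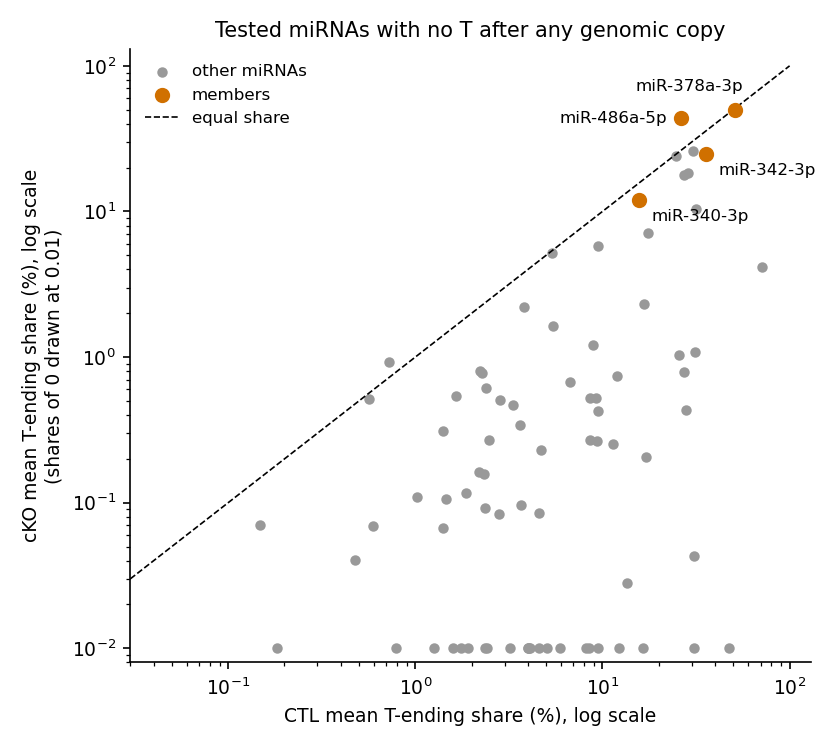
Mean T-ending share in Tut4/7 cKO (vertical) against Tut4/7 CTL libraries (horizontal), in percent on log scales, for the 80 tested miRNAs with no T after any genomic copy. Points are miRNAs, with the 4 members in orange and their values as deposited, and cKO shares of 0 are drawn at 0.01. Most grey points lie far below the dashed line of equal shares, and the members lie near or above it.

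The tails of the members were almost all single Ts. miR-378a-3p had 5995 CTL and 5302 cKO reads with 1 T, and 7 and 3 reads with 2 or 3. miR-342-3p had 9 reads with 2 Ts, all in CTL libraries, and miR-340-3p had none with more than 1 T in either genotype. miR-486a-5p was the exception in cKO libraries, where 11 of its T-ending reads carried 1 T, 2 carried 2 and 1 carried 3. Of all T-ending reads of the members, 0.262% (95% Wilson interval 0.164 to 0.419) carried 2 or 3 Ts in CTL and 0.104% (0.0477 to 0.227) in cKO libraries. Over all other miRNAs of the table with a complete mature sequence and no following T, 2 or 3 Ts made up 12.7% ± 3.47 (SD, n = 5) of T-ending reads in CTL and 4.08% ± 2.45 (SD, n = 4) in cKO libraries. Both are shares of pooled reads, and miR-378a-3p gave 6002 of the members' 6491 T-ending CTL reads. By miRNA, the CTL value was 0.117% for miR-378a-3p, 2.33% for miR-342-3p, 0% for miR-340-3p and 3.57% for miR-486a-5p. It was 2.13% for let-7i-5p and 7.69% for miR-27a-3p (13 T-ending reads), neither of them a member. Single Ts thus made up nearly all tails of the members in control as well as in knockout cells.

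The starts of the reads gave a further description of miR-378a-3p. Reads that began past base 1, nearly all at base 2, made up 5.12% ± 0.749 of its reads in CTL and 5.00% ± 0.526 in cKO libraries. Among its T-ending reads the share was 6.14% ± 1.19 and 6.31% ± 1.32, and among reads that stopped at the mature end 4.24% ± 1.40 and 4.08% ± 0.482. Shifted starts of miR-342-3p lay mostly at base 3, with 2.50% ± 1.32 and 1.54% ± 0.992 of its reads. T-ending reads of both miRNAs hence began, in their great majority, at the annotated first base.

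Trimmed reads, which stop before the mature end, can be compared without use of the reads counted as T-ending. For miR-342-3p this separation is incomplete, since a read trimmed by 1 base with 1 T added counts as a mature read. Of its trimmed reads, 29 of 33 in CTL and 91 of 95 in cKO libraries were trimmed by 1 base. The odds of a trimmed read among reads not ending in T were tested with edgeR's quasi-likelihood test over 184 miRNAs, of which 1.09% passed an adjusted p of 0.05, and neither miR-342-3p nor miR-340-3p did. Neither passed at an unadjusted p under 0.05 either, as 14.1% of the 184 did. For miR-342-3p, 3.46% ± 2.41 of such reads were trimmed in CTL and 4.62% ± 2.78 in cKO libraries, with a log2 odds ratio of 0.36 ± 0.57 (SE, edgeR adjusted p = 0.900). For miR-340-3p, 10.4% ± 6.82 and 10.6% ± 4.82 were trimmed, and the log2 odds ratio was 0.08 ± 0.43 (SE, edgeR adjusted p = 0.987). Each turned below 0 in at least 1 fit that left out a library, as miR-342-3p did without cKO replicate 4 (-0.09). Trimmed reads of miR-378a-3p and miR-486a-5p could not be told apart from those of their paralogs, and no result is given for them.

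**Figure D3:**
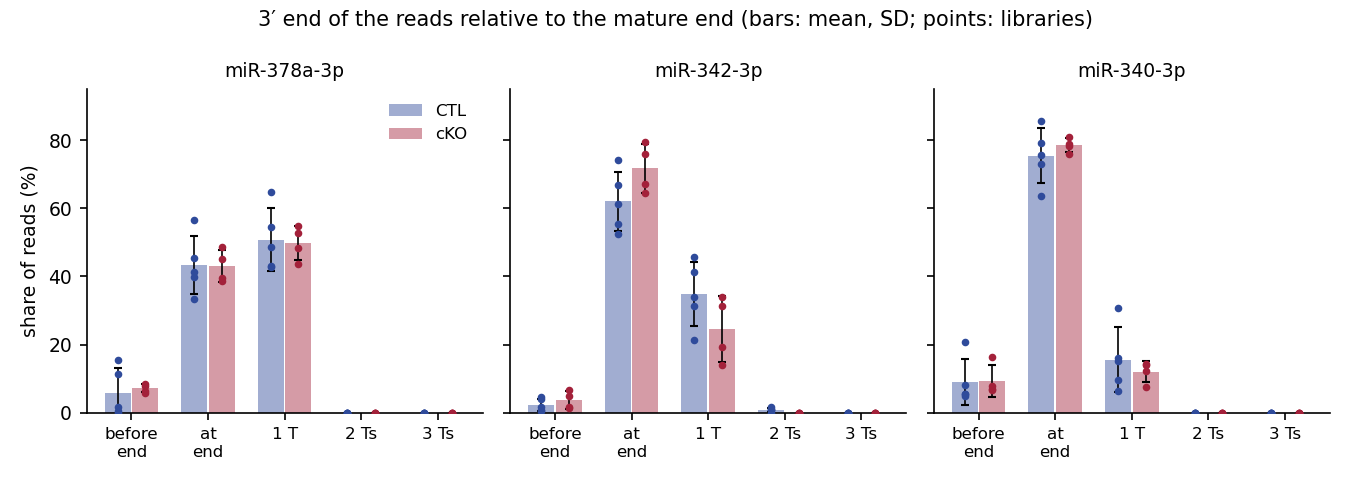
Share of the reads of 3 members (vertical axis, percent) that stopped before the mature 3′ end, at it, or 1, 2 or 3 Ts past it (horizontal axis). Bars are means over 5 Tut4/7 CTL (blue) and 4 Tut4/7 cKO (red) libraries, error bars are SDs and points are libraries. Reads past the end fall almost wholly in the class of 1 T in both genotypes, and reads of miR-378a-3p that stop before the end include ones that also fit its paralogs.

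The members' abundance did not pass the test between genotypes. Counts were compared as CPM, which are counts per 1000000 miRNA reads with library totals scaled by TMM, and were tested with edgeR's quasi-likelihood test in 205 miRNAs. Of these 0.488% passed an adjusted p of 0.05, and 0 of the 4 members did. At an unadjusted p under 0.05, 31 of the 205 (15.1%) passed, also without a member. In bulk libraries, a change in the level per cell and a change in the share of cells that express a miRNA cannot be told apart.

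miR-378a-3p had 13636, 8211, 9455, 7296 and 6084 CPM in CTL replicates 1 to 5 and 5927, 7213, 6543 and 11792 CPM in cKO replicates 1 to 4. The genotypes overlapped, with CTL replicate 1 and cKO replicate 4 well above the others. The log2 fold change was -0.18 ± 0.31 (SE, edgeR adjusted p = 0.804), and it moved between -0.55 without cKO replicate 4 and 0.02 without CTL replicate 1.

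miR-342-3p, known to increase as myeloid cells mature, had 782, 915, 521, 1472 and 451 CPM in CTL replicates 1 to 5. It had 785, 821, 641 and 2834 CPM in cKO replicates 1 to 4, so that 1 cKO library stood far above all others and the remaining 3 lay within the CTL range. The log2 fold change was 0.62 ± 0.53 (SE, edgeR adjusted p = 0.645), and without cKO replicate 4 it turned to -0.24. The same library had the lowest T-ending share of miR-342-3p.

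miR-340-3p had 214, 373, 365, 290 and 341.97 CPM in CTL replicates 1 to 5 and 813, 557, 788 and 199 CPM in cKO replicates 1 to 4. In 3 of the 4 cKO libraries it was above every CTL library, and in the remaining one below all of them. The log2 fold change was 0.89 ± 0.41 (SE, edgeR adjusted p = 0.332), and without cKO replicate 4 it was 1.09 with an edgeR adjusted p of 0.0533.

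miR-486a-5p together with miR-486b-5p had 44.1 to 155 CPM in CTL and 47.1 to 144 CPM in cKO libraries. The log2 fold change of the combined reads was 0.04 ± 0.47 (SE, edgeR adjusted p = 0.981), against -0.58 ± 0.78 (SE, edgeR adjusted p = 0.781) as deposited. Of the other erythroid miRNAs, miR-144-3p and miR-144-5p were not listed, and miR-451a had 2 reads in all CTL and 3 in all cKO libraries. All 7 markers of blood and myeloid cells were detected, with a summed level of 41003 to 78125 reads per 1000000 miRNA reads in CTL and 45100 to 89189 in cKO libraries. miR-122-5p, a hepatocyte miRNA, was present at 529 to 1346 reads per 1000000 miRNA reads in CTL and 581 to 1425 in cKO libraries, and its part in the values of the members was not tested.

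As a level rather than a share, the T-ending reads of miR-378a-3p came to 4600 ± 1055 reads per 1000000 miRNA reads (SD, n = 5) in CTL and 3722 ± 1361 (SD, n = 4) in cKO libraries. Of all T-ending reads from the table's miRNAs without a following genomic T, the members gave 20.7% ± 9.29 in CTL and 44.7% ± 8.75 in cKO libraries, and miR-378a-3p alone 19.2% ± 8.80 and 41.0% ± 8.53. Without the members, 4.77% ± 1.98 of the reads of that class ended in T in CTL and 0.932% ± 0.158 in cKO libraries. With them the values were 5.70% ± 2.05 and 1.67% ± 0.296. The members were chosen for T-ending reads kept in cKO libraries, so their larger part there follows from that choice and is only a description. CTL replicate 2 stood apart here, with 1.44% without the members against 4.53% to 6.35% in the other CTL libraries, while its miR-378a-3p share was close to that of CTL replicate 1.

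The opposite arms of the same hairpins were not used to choose the members, and their T-ending reads can be tested. Their mature and next bases in GRCm39, the 7 bases after the mature end in capitals, show that G follows both.
miR-342-5p: aggggtgctatctgtgattgagGGACATG
miR-340-5p: ttataaagcaatgagactgattGTCATAT
The test was edgeR's quasi-likelihood test of the odds of a T-ending read over 143 miRNAs, of which 59.4% passed an adjusted p of 0.05, all with lower odds in cKO libraries. Entry required a T-ending read in 3 or more CTL libraries, so a miRNA with such reads in cKO libraries alone could not enter. Both opposite arms that entered it, those of miR-378a and miR-342, passed. They also passed with an entry rule blind to genotype (edgeR adjusted p = 0.0145 and 0.0268). With so high a share of calls, and entry through the CTL libraries, these passes are near the background.

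miR-378a-5p had 4, 2, 4, 1 and 1 T-ending reads in CTL replicates 1 to 5, on 52 to 80 reads each, and 0 in every cKO library, on 27 to 71 reads. Together 12 of 314 CTL reads (3.82%) ended in T against 0 of 213 cKO reads. The 95% Wilson intervals were 2.20% to 6.56% in CTL and 0% to 1.77% in cKO libraries. These intervals cover counting error only, on reads pooled over libraries, and no least fold difference is drawn from them. The edgeR adjusted p was 0.0137. A quasi-binomial model gave a log2 odds ratio of -29.4 (adjusted p = 0.997). With 0 T-ending reads in every cKO library that model has no finite estimate, so its p value decides nothing. No T-ending read of this arm was seen in the cells in which the 3p arm of the same hairpin kept its tails.

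For miR-342-5p, the T-ending reads were 0, 0, 6, 1 and 4 in CTL replicates 1 to 5 and 1, 0, 1 and 2 in cKO replicates 1 to 4. In all, 11 of 334 CTL reads (3.29%) and 4 of 1023 cKO reads (0.391%) ended in T, with a log2 odds ratio of -2.90 ± 1.05 (SE, edgeR adjusted p = 0.0263). CTL replicate 3 gave more than any other library, and the call was lost without it (edgeR adjusted p = 0.174) and without CTL replicate 5, cKO replicate 2 or cKO replicate 3. It was also lost with the quasi-binomial model (adjusted p = 0.143). miR-340-5p had too few T-ending reads to be tested, 2 of 452 in CTL and 2 of 821 in cKO libraries. The passenger arm miR-486a-3p had a read in cKO replicate 1 only.

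Named reference miRNAs gave the size of the loss elsewhere. For let-7i-5p, whose sequence is followed by G, the share fell from 1.47% to 0.107%, with a log2 odds ratio of -3.65 ± 0.61 (SE, edgeR adjusted p = 0.000117). For miR-27a-3p, 13 of 8680 CTL reads ended in T and 0 of 12437 cKO reads. The 95% Wilson upper limit of its cKO share was 0.0309%, on reads pooled over libraries. Most of these reads, 8116 in CTL and 11868 in cKO libraries, were trimmed by 1 base. The mature miR-27a-3p ends in C, so a T added to such a read could not map, and the limit does not cover it. Among reads that reached the mature end, only 139 in cKO libraries, the mean T-ending share was 5.38% in CTL and 0% in cKO libraries. miR-92a-3p, followed by a genomic T at 1 locus, had 96.5% and 96.0%, with a log2 odds ratio of -0.24 ± 0.41 (SE, edgeR adjusted p = 0.624). The difference in odds between the members and these miRNAs was not tested, since the members' shares chose them.

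Of the opposite arms, those of miR-342 and miR-340 had higher levels in cKO libraries, without overlap between genotypes. miR-342-5p had 143, 173, 147, 335 and 413 CPM in CTL replicates 1 to 5 and 1407, 1038, 493 and 551 CPM in cKO replicates 1 to 4. miR-340-5p had 308, 316, 303, 408 and 297 CPM in CTL and 1127, 470, 619 and 533 CPM in cKO libraries. Every cKO library was above every CTL library for both arms, which held for 3.41% of the 205 miRNAs tested.

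At an unadjusted p under 0.05 both arms passed, as 8.78% of the 205 did with a higher level in cKO libraries, but the adjusted edgeR test called neither. The log2 fold change of miR-342-5p was 1.84 ± 0.46 (SE, edgeR adjusted p = 0.0873), and it passed with DESeq2 (adjusted p = 0.00163) and without the filter on low counts (edgeR adjusted p = 0.0316). That of miR-340-5p was 1.07 ± 0.32 (SE, edgeR adjusted p = 0.155), and it passed with DESeq2 only (adjusted p = 0.0247). For miR-378a-5p the log2 fold change was -0.49 ± 0.27 (SE, edgeR adjusted p = 0.408). As a description of the arms against each other, miR-342-3p reads per miR-342-5p read had a median of 4.40 (1.09 to 5.47) in CTL and 1.05 (0.558 to 5.15) in cKO libraries. For miR-340 the medians were 1.15 and 0.953, and for miR-378a 40.4 and 41.4, with overlapping ranges in each case.

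**Figure D4:**
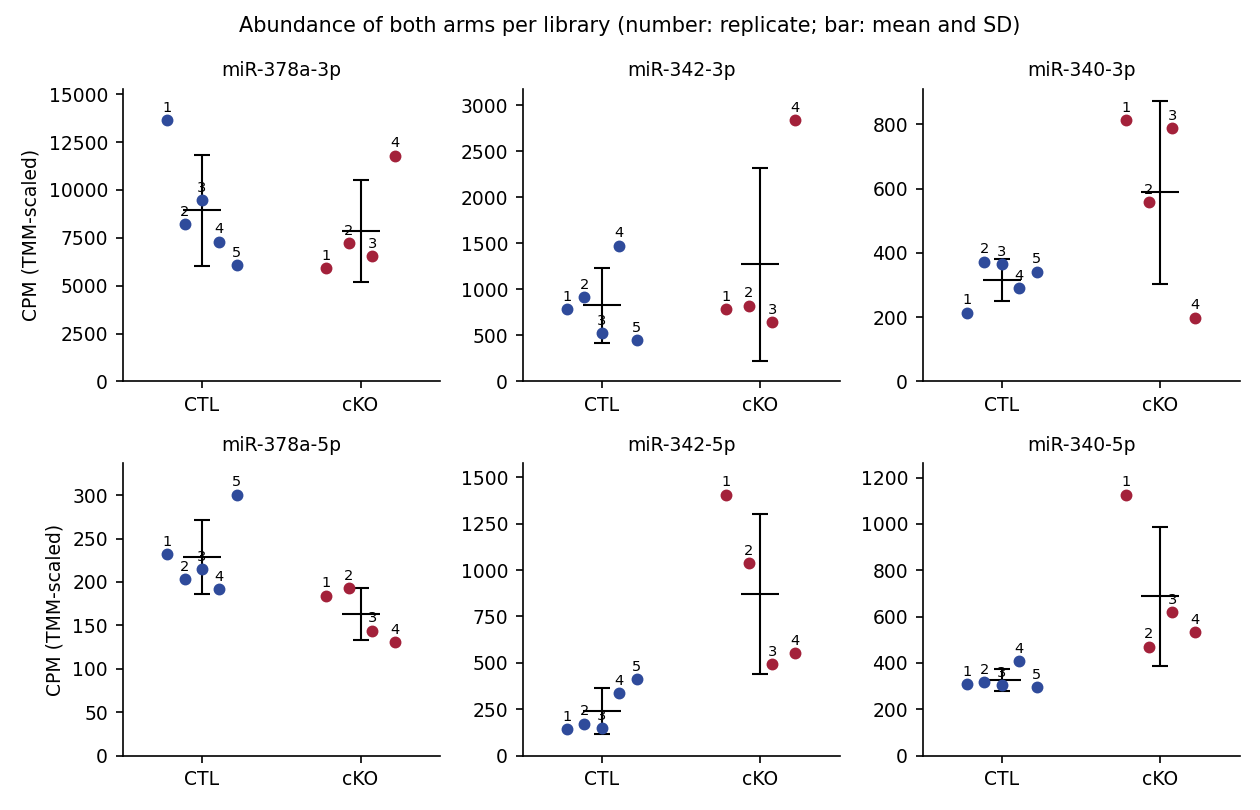
Abundance in TMM-scaled counts per 1000000 reads (CPM, vertical axes scaled separately) of the 3p arms (top) and 5p arms (bottom) of miR-378a, miR-342 and miR-340 in the 5 Tut4/7 CTL and 4 Tut4/7 cKO libraries. Points are libraries numbered by replicate, and black bars give the mean and SD. The genotypes overlap for the 3 members in the top row, and do not overlap for miR-342-5p and miR-340-5p.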

How the data were processed

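Small RNAs were sequenced from 5 Tut4/7 CTL and 4 Tut4/7 cKO samples, grouped by the genotype in the labels. The authors trimmed adapters and aligned reads, allowing no mismatch, to miRBase mature sequences lengthened by 3 Ts. The submitters' processing notes name cutadapt 5.0, Bowtie 1.3.1 and DESeq2 1.42.1. The miRBase release and genome build are not given in the sources used here. The authors deposited raw counts, not normalized, for each miRNA and for each read sequence and its position. The 2 forms differed in 0 of the counts, and every base past a mature end was T. The total miRNA counts were 209702 to 316620 per CTL and 175462 to 479342 per cKO library.

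Abundance was tested in miRNAs reaching 10 reads in 4 or more libraries, with edgeR 4.0.16 (R 4.3.3), TMM and genotype as the only term. Odds of T-ending or trimmed reads were tested with a term per library, read class and its interaction with genotype, in those reaching 10 reads in 5 or more libraries. For T-ending odds, a T-ending read in 3 or more CTL libraries was also required. The Benjamini-Hochberg adjustment covered all miRNAs tested. DESeq2 1.42.0, other filters and size factors, a quasi-binomial model and omission of each library were alternatives. On simulated counts, 48 of 50 miRNAs shifted by 2 on the log2 scale were recovered among 205 for abundance, with 2 false calls. Of 50 shifted by -3, 31 were recovered among 143 for T-ending odds and 47 among 184 for trimmed odds, with 0 false calls each. The simulated spread between libraries was fixed rather than estimated from these libraries, so these counts do not give error rates for them.

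Mature sequences were rebuilt from the reads and searched on both strands of GRCm39 for exact copies and the next base. Loci were annotated with GENCODE M39. Named miRNAs were the members, their opposite arms and paralogs, erythroid markers, 3 reference miRNAs, the 3 most similar to each member, and up to 5 just outside the list. The members and lists were chosen with earlier results of these data known. Samples were not treated as pairs in the main fits, since the study's methods name no pairing for the sRNA-seq. Deviations of same-numbered libraries from their genotype means correlated between -0.200 and 0.432, which does not decide whether they were paired. *Tut4* and *Tut7* mRNA was not analysed here.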

Additional observations from a re-analysis of the deposited data

Results flagged for a closer look

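In 3 of 29 groups of 4 or 5 libraries examined, the highest library lay far from the others, where chance flags about 1 in 20. miR-342-3p had 2834 CPM in Tut4/7 cKO replicate 4, above 641 to 821 CPM in the other cKO libraries. miR-340-5p had 408 CPM in Tut4/7 CTL replicate 4, above 297 to 316 CPM in the other CTL libraries. miR-340-5p also had a T-ending share of 1.16% in Tut4/7 cKO replicate 2, on 2 reads of 173, against 0 in the other cKO libraries. Where all other libraries are at 0, any T-ending read stands out, so the rate of 1 in 20 does not apply to this group.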

How the results depend on the processing

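No alternative made the abundance of a member pass the threshold. The number of miRNAs called for abundance, 1 of 205, became 11 with DESeq2, 18 without the filter on low counts, 0 with non-T-ending reads only and 0 with the replicate block, and 0 to 2 when each library was left out. Calls of T-ending odds, 85 of 143, fell to 28 with the quasi-binomial model, became 73 with the replicate block, and were 61 (without cKO replicate 3) to 100 (without CTL replicate 2) when each library was left out. Calls of trimmed odds, 2 of 184, became 1 with at least 50 non-T-ending reads, 1 with the quasi-binomial model and 2 to 7 when each library was left out, the 7 without CTL replicate 2 and 4 without cKO replicate 2. miR-342-5p did not pass for T-ending odds with the quasi-binomial model (adjusted p = 0.143) or the replicate block (edgeR adjusted p = 0.0681). The quasi-binomial model cannot call a miRNA with 0 T-ending reads in every cKO library. Such were miR-378a-5p and miR-27a-3p (adjusted p = 0.997 for each), which edgeR called. The cause of the other changes was not tested.

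The mean T-ending shares with each library left out in turn were 47.3% to 52.8% in CTL and 48.3% to 52.0% in cKO for miR-378a-3p, 32.9% to 39.2% and 21.5% to 28.2% for miR-342-3p, and 11.8% to 18% and 11.2% to 13.5% for miR-340-3p. For miR-486a-5p they were 21.9% to 33.0% and 24.8% to 54.0%, and reads with the whole mature sequence gave a CTL mean of 72.0%, as its trimmed reads dropped out. Reads that fit a paralog were moved to miR-378a-3p and miR-486a-5p in an alternative chosen after the data were seen. Depth limits miR-340-3p and miR-486a-5p most, with 48 to 345 and 3 to 41 reads per library.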
